A study of Mus musculus with 10 samples.

Results

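Whole kidney of wild-type mice at 8 weeks of age was profiled on 5 Affymetrix Murine Genome U74Av2 arrays, 1 array for each of the animals numbered 612, 618, 650, 658 and 663, out of 10 arrays in the series. Probe sets that name 1 gene were ranked by their mean log2 signal over these 5 arrays, with the probe set of highest mean kept where a gene has several. This gave 8251 genes, of which the 150 with the highest means and, among the 3814 with a mean over 6, the 40 with the highest standard deviation (SD) between the 5 animals are described here. Both sets were chosen by the values themselves, so their ranks and SDs are descriptions and carry no test.

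The wild-type mice were littermates of FGF23 transgenic mice on a C57Bl background. The transgenic mice carry human wild-type FGF23 behind a collagen (1 alpha col 1) promoter, introduced by microinjection, and their 5 kidneys, also at 8 weeks, are used only as a second set of animals for differences between the sexes. The genotype field reads FGF23 TG for all 10 samples, so the group of each animal was taken from its title. Sex is not given in the labels and was read from Xist, the X-inactivation transcript, which was at 11.90 in WT 612 and 10.21 in WT 650 and between 3.13 and 3.36 in WT 618, WT 658 and WT 663.

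The Y-linked Eif2s3y ran the opposite way, at 4.29 and 4.43 in the first 2 animals and 8.06 to 8.52 in the other 3, so the wild-type group holds 2 females and 3 males. The transgenic group has the same make-up, with TG 614 and TG 652 as its females.

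As background, the nephron filters blood in the glomerulus and then reclaims most of the filtrate in the proximal tubule, a segment packed with mitochondria, endocytic receptors and transporters for sodium, phosphate, glucose, amino acids and organic anions. The thick ascending limb dilutes the urine and secretes uromodulin, and the distal convoluted tubule, connecting tubule and collecting duct adjust salt, calcium, acid and water. The mouse kidney differs between the sexes, and androgen-responsive genes of the proximal tubule are a long-known example.

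A signal of 1 log2 unit more is a 2-fold higher value, but each probe set binds its transcript with its own strength, so the rank is one of array signal and not of mRNA copies. Between 53.4 and 57.0% of probe sets were over a log2 value of 4 on each wild-type array, and the correlation between arrays was 0.982 to 0.997 over all probe sets. The arrays were not alike in every respect. The difference between the 3′ and 5′ actin control probe sets, a sign of RNA integrity, was 3.35 log2 units in WT 612, 2.90 in WT 618 and 2.42 in WT 650, against 1.95 in WT 658 and 2.0 in WT 663. Among the 5291 genes with a mean over 4, WT 612 was the lowest animal for 31% and the highest for 25.2%, so its values lie at the ends more often than those of WT 663, which was lowest for 9.13% and highest for 18.2%. WT 663 was run on another day than the other 4. WT 612, WT 618 and WT 650 shared a chip lot, and WT 658 and WT 663 were of another. Both females were thus on the same lot, with the male WT 618. Apart from blocks for day or lot in the tests between the sexes, the part of these differences below was not tested.

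The starts of 5 genes that carry the account are shown first: Gpx3 and Kap from the top of the signal ranking, Slc34a1 and Umod as markers of the proximal tubule and the thick ascending limb, and Pzp, one of the genes with the widest spread between animals. The sequences are the 250 bases before each gene's first base, 5′ to 3′ on the gene's strand, from RefSeq (GRCm38.p6). Capitals mark TATAAA on the gene's strand, the core of a TATA box, and AGAACA on either strand (TGTTCT when read on the gene's strand), the core half-site bound by steroid receptors such as the androgen and glucocorticoid receptors.
Gpx3, chr11:54902604-54902853, plus strand: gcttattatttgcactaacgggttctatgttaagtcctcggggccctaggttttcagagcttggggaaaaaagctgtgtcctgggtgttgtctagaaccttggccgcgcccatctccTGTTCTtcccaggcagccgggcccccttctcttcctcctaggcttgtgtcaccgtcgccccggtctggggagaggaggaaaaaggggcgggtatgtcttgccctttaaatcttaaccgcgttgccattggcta
Kap, chr6:133853668-133853917, minus strand: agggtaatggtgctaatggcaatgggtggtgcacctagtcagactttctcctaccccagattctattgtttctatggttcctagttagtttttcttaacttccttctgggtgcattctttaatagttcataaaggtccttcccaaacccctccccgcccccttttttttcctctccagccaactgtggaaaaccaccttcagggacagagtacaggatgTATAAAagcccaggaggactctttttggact
Slc34a1, chr13:55399398-55399647, plus strand: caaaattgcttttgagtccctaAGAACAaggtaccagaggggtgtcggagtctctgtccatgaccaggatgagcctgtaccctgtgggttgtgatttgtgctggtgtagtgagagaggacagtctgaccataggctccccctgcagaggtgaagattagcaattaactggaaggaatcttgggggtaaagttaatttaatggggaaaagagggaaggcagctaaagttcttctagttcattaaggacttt
Umod, chr7:119479263-119479512, minus strand: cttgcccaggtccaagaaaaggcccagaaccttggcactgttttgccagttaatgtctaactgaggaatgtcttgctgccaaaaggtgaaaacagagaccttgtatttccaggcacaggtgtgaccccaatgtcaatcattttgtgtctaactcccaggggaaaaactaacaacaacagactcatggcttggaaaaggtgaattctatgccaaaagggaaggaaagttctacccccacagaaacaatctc
Pzp, chr6:128526721-128526970, minus strand: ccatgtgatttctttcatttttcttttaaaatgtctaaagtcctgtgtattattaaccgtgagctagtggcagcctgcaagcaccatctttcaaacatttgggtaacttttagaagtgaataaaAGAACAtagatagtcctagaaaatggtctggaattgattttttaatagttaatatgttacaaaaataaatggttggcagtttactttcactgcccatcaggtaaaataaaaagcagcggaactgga

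Of these 5 windows, Kap held TATAAA, which starts 31 bases before the gene (position -31), Gpx3, Slc34a1 and Pzp each held 1 AGAACA, and Umod held neither. TATAAA and AGAACA can share 1 base, and each was searched for on its own. A promoter was listed for 118 of the 150 genes. TATAAA was in 11 of them (9.32%), against 8.12% of all 27025 promoters of this length, and AGAACA in 14 (11.9%), against 16.2%. The 11 with TATAAA were Kap, Miox, Ndufa3, Acsm2, Acy3, Txn1, Sod1, Inmt, Laptm4a, Adh5 and Srsf2, while 0 of the 10 ribosomal protein genes with a listed promoter had it. A match is only a match of letters, not a bound site.

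The 150 highest-signal genes had means from 11.98 to 14.66. The list began with Gpx3, the glutathione peroxidase that the proximal tubule secretes into plasma, at 14.69 in WT 612, 14.74 in WT 618, 14.69 in WT 650, 14.53 in WT 658 and 14.62 in WT 663 (mean 14.66 ± 0.08, SD, n = 5). Next was Klk1, the tissue kallikrein made in the connecting tubule, at 14.63, 14.28, 14.50, 14.16 and 14.12 in the same order of animals. The females had the higher Klk1 values and did not overlap with the males. Kap, the kidney androgen-regulated protein of the proximal tubule, had rank 5, at 14.00, 14.35, 14.07, 14.14 and 14.20, with the males on top but a mean of 14.15 ± 0.13. Ranks 3, 4 and 6 were held by Rpl41, a ribosomal protein (14.18 ± 0.14), Tpt1, the translationally controlled tumour protein (14.16 ± 0.05), and Fth1, the ferritin heavy chain that stores iron (14.15 ± 0.19).

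**Figure D1:**
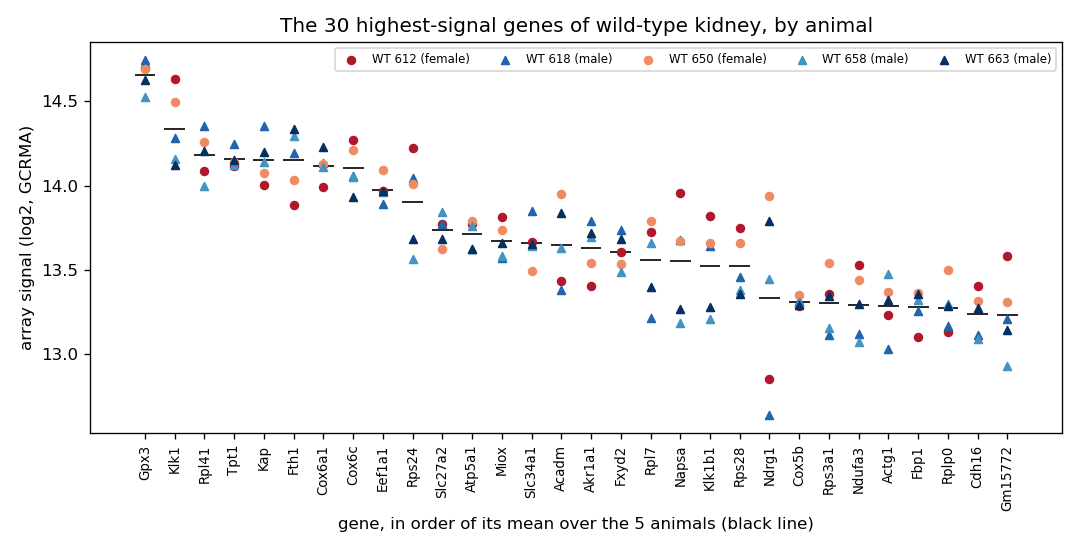
Array signal (log2) of the 30 highest-signal genes in each wild-type animal, with females as circles, males as triangles and a black line at the 5-animal mean. Most genes keep their 5 points within a narrow band, and Ndrg1, from 12.64 to 13.94, is spread most widely among the 30.

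Just inside the limit of 150 were Ywhaq, a 14-3-3 adaptor protein (mean 11.99), and Ndufs3 and Ndufb2, subunits of respiratory complex I (both 11.98). Just outside were the efflux transporter Abcg2 (11.96) and, both at 11.95, Suclg1, a subunit of succinyl-CoA ligase, and Rps7, a ribosomal protein. These neighbours differ by less than their SDs of 0.11 to 0.23, so the border is not a sharp one. Another 37 probe sets that name several genes and 23 that name none lay above the lowest of the 150 and are not ranked.

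By cell type, 23 of the 150 were in a list of marker genes, and 17 of these 23 were proximal tubule markers, out of 40 on the array. The list of proximal tubule markers had a median mean of 11.61 over its 40 members. Of the transporters in that list, Slc34a1 had the highest mean: this gene, the sodium-phosphate cotransporter NaPi-IIa and a target of FGF23 action, was at 13.66, 13.85, 13.50, 13.64 and 13.66 in WT 612, WT 618, WT 650, WT 658 and WT 663 (13.66 ± 0.13, rank 14). Its scaffold protein Pdzk1 was steadier still, from 12.70 to 12.84 (12.78 ± 0.06). The sexes overlapped for both genes.

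Further phosphate and anion carriers of the proximal tubule among the 150 were Slc17a1, a phosphate and urate transporter (12.32 ± 0.38), the organic anion transporter Slc22a6 (12.31 ± 0.77) and the urate transporter Slc22a12 (11.99 ± 0.62). All 3 were higher in each of the 3 males than in either female, as were 20% of the 3814 genes with a mean over 6. In the limma test between the sexes described below, Slc22a6 alone of the 3 passed (adjusted p = 0.0266). The adjusted p of that test was 0.0915 for Slc17a1 and 0.176 for Slc22a12. The endocytic receptor megalin, Lrp2, which takes up filtered proteins and vitamin carriers, was at 12.60 ± 0.32, whereas its partner cubilin, Cubn, at 11.84 ± 0.41, fell short of the list at rank 171.

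Proximal tubule enzymes filled most of the other places. Miox, which opens the inositol ring, was at 13.67 ± 0.10, and the gluconeogenic enzymes Fbp1, fructose-bisphosphatase, and Pck1, phosphoenolpyruvate carboxykinase, were at 13.28 ± 0.11 and 12.82 ± 0.38. The aspartic protease Napsa was at 13.55 ± 0.32, Keg1 at 13.20 ± 0.21 and the steroid dehydrogenase Akr1c21 at 13.16 ± 0.33. Gatm, the first enzyme of creatine synthesis, was at 12.47 ± 0.21, and Fah, the last enzyme of tyrosine breakdown, at 12.06 ± 0.12. Over the 17 proximal tubule markers of highest mean, the SDs ran from 0.06 for Pdzk1 to 1.16 for the P450 enzyme Cyp4b1. Not every marker was high: Mep1a, a brush-border protease subunit, had a mean of 2.56 on its only probe set, while its partner Mep1b was at 10.02.

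Beyond the proximal tubule, the thick ascending limb gave 2 of its 6 measured markers. Umod, uromodulin, was at 12.95, 11.90, 13.36, 13.28 and 12.92 in WT 612, WT 618, WT 650, WT 658 and WT 663, and Egf, the growth factor precursor of the same cells, was at 12.70, 11.92, 13.48, 13.20 and 13.03. WT 618 was the lowest and WT 650 the highest for both. Slc12a1, the sodium-potassium-chloride cotransporter of this segment, followed at rank 197 with 11.73 ± 0.56.

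The list of distal convoluted tubule markers also gave 2 of 6, though signal from whole kidney does not show which segment a transcript came from. Fxyd2, the gamma subunit of the sodium pump, was at 13.61 ± 0.10. Kl, klotho, the co-receptor through which FGF23 acts, was at 12.18, 12.15, 12.26, 12.33 and 12.27 (12.24 ± 0.07, rank 112), one of the narrowest ranges of the 150 and with both sexes interleaved. Slc12a3, the thiazide-sensitive sodium chloride cotransporter, was below the limit at 11.58 ± 0.45. Pvalb of the same list was at 8.74 ± 0.52.

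Calb1, the calcium-binding protein of the distal convoluted and connecting tubules, was at 11.24, 11.08, 11.73, 11.04 and 11.07 (11.23 ± 0.29, rank 311). WT 650 was highest, and the females did not overlap with the males. Of the connecting tubule and collecting duct list, Klk1 alone of 13 was among the 150, with S100g, another calcium-binding protein, at 11.74 ± 0.53 and the water channel Aqp2 at 10.22 ± 0.55. The 4 marker genes chosen for these kidneys, Slc34a1, Kl, Umod and Calb1, were therefore all well over a log2 value of 4 on each array.

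None of the 150 came from the podocyte, intercalated cell, endothelial, smooth muscle and renin cell, fibroblast, leukocyte or red blood cell lists. The highest members there were Hba-a1, an alpha globin, at 11.78 and rank 189, Car2, the carbonic anhydrase of intercalated cells, at 11.48, and Col4a1, a basement membrane collagen, at 11.01. Cd74, the invariant chain of antigen-presenting cells, was at 10.49, and the endothelial Emcn and Eng were both at 10.17. The podocyte list had 5 genes on the array, led by Cdkn1c at 8.86. In whole tissue, few cells of a type and little RNA per cell cannot be told apart.

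For tissues that could be carried along with a kidney, 0 of 7 adrenal and 0 of 9 skeletal muscle genes had a mean over 4. Of 19 liver plasma protein genes, 11 did, with Apob highest at 9.47, while albumin, Alb, was at 5.40, 4.25, 6.23, 4.78 and 4.49. The adipose list put Lpl, lipoprotein lipase, among the 150 at 12.38 ± 0.37, a gene that other cells also express. Its other members were lower.

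**Figure D2:**
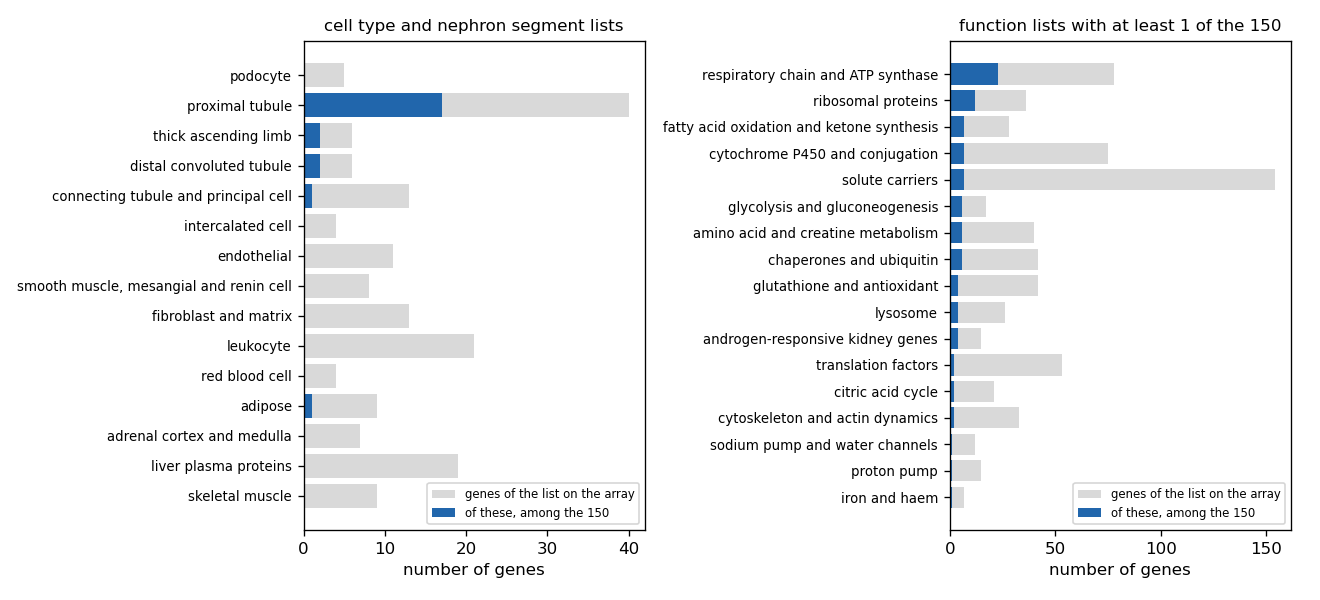
Number of genes of each list on the array (grey) and among the 150 highest-signal genes (blue), for cell type lists on the left and function lists on the right. The proximal tubule list contributes 17 genes, the respiratory chain and ATP synthase list 23 and the ribosomal protein list 12.

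By function, energy metabolism formed the largest group. The list of respiratory chain and ATP synthase genes gave 23 of 78, with means from 11.98 to 14.12 and a median SD of 0.14. Its highest members were Cox6a1 and Cox6c, subunits of cytochrome c oxidase (14.12 ± 0.08 and 14.10 ± 0.14), and Atp5a1, the alpha subunit of ATP synthase (13.71 ± 0.08). Cox5b, another cytochrome c oxidase subunit, had the narrowest spread of all 150, at 13.29, 13.32, 13.35, 13.31 and 13.29. Its SD was 0.03, against a median of 0.20 over the 150.

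Fatty acid oxidation gave 7 of 28, headed by Acadm, the medium-chain acyl-CoA dehydrogenase, at 13.43, 13.38, 13.95, 13.63 and 13.84 (13.65 ± 0.25). Acsm2, a medium-chain acyl-CoA synthetase, followed at 13.17, then Dbi, the acyl-CoA-binding protein, at 12.66, the sterol carrier Scp2 at 12.55 and the thiolase Acaa2 at 12.46. Slc27a2, a fatty acid transporter and very long-chain acyl-CoA synthetase, was counted among the solute carriers and held 13.74 ± 0.08. Glycolysis and gluconeogenesis gave 6 of 17, among them Tpi1 (12.26), Ldhb (12.24), Aldoa (12.06) and Pgk1 (12.04). Amino acid and creatine metabolism gave 6 of 40. The citric acid cycle list gave 2 of 21, Mdh2, malate dehydrogenase (12.76 ± 0.08), and Me1 (12.29 ± 0.66). Me1 is the cytosolic malic enzyme, which the list counts although it is not a step of the cycle.

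Protein synthesis came next. Ribosomal proteins gave 12 of 36, from Rpl41 at 14.18 to Rpl7a at 12.17, and their median SD was 0.17. Rps24, the second of them, was at 14.22, 14.05, 14.01, 13.56 and 13.68, lower in WT 658 and WT 663 than in the other 3. Besides Tpt1, which the list of translation factors also holds, Eef1a1, elongation factor 1 alpha, stood at 13.98 ± 0.07. Of 42 chaperone and ubiquitin genes 6 were in: Hspa8, the constitutive heat shock protein (13.23), Hsp90aa1, Hspa5, Hspd1, Hspa9 and Hsp90b1.

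Detoxification and antioxidant defence gave 7 of 75 P450 and conjugation genes and 4 of 42 glutathione and antioxidant genes. The first group was led by the aldehyde reductase Akr1a1 at 13.63 ± 0.15, with the flavin monooxygenase Fmo1 at 13.08 ± 0.11 and Cyp4b1 at 12.91 ± 1.16. The second held Gpx3, thioredoxin Txn1 (12.65 ± 0.14) and superoxide dismutase Sod1 (12.58 ± 0.30). It also counts Hao2, a peroxisomal hydroxyacid oxidase and not itself an antioxidant enzyme (12.14 ± 1.02). The lysosome gave 4 of 26 (Lamp1, Cd63, Laptm4a and Ctsl), and the proton pump 1 of 15, Atp6v1a.

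In no list were 50 of the 150. Among them were Cdh16, the kidney-specific cadherin (13.24 ± 0.13), Timp3, an inhibitor of matrix metalloproteases (12.97 ± 0.13), Tcn2, the vitamin B12 carrier transcobalamin (12.96 ± 0.19), and the kallikreins Klk1b1, Klk1b5 and Klk1b22 at 13.52, 13.10 and 12.81. The mouse kallikreins are a family of near-identical genes, and these 3, like Klk1, were read by probe sets of the type that can bind several family members, so their separate levels are uncertain. Such probe sets stand for 20 of the 150, among them Rpl41, Cox6a1, Cox6c and Cyp4b1, so the same limit holds for those values. Ndrg1, a stress-regulated gene, varied more than its neighbours, at 12.85 and 12.64 in WT 612 and WT 618 and 13.94, 13.45 and 13.79 in WT 650, WT 658 and WT 663, which splits the animals by number range and not by sex.

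Spread between the animals differed little from that of other genes. Their median SD was 0.20 log2 units, against 0.24 over the 3814 genes with a mean over 6. Of the 150, 76 had an SD under 0.2 and 17 one over 0.5, which is 11.3%, against 10.7% of the 3814. The 3 with an SD over 1 were Cyp4b1, Inmt and Hao2.

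**Figure D3:**
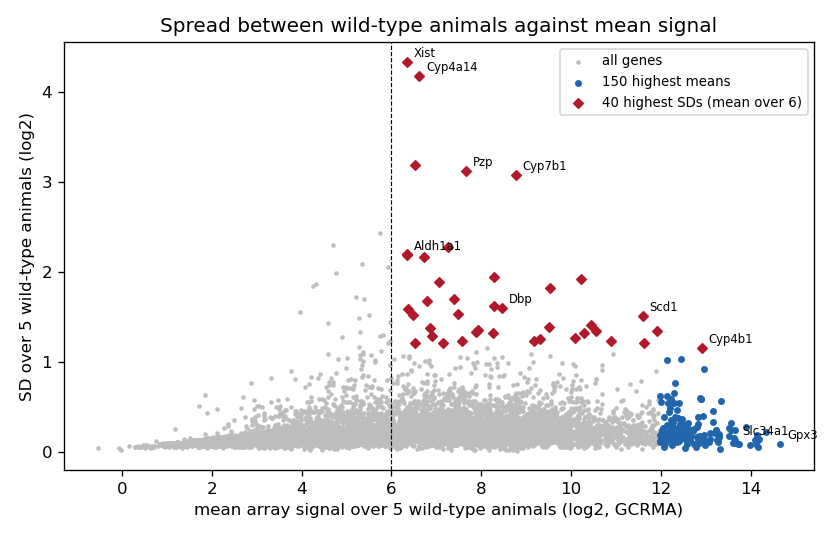
SD over the 5 wild-type animals against mean signal for all 8251 genes, with the 150 highest means in blue and the 40 highest SDs among genes with a mean over 6 (dashed line) in red. The 40 range in mean from 6.34 to 12.91, and Cyp4b1 is the only gene in both sets.

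Because the 150 were chosen by mean, the difference between females and males in the same arrays could be tested for them. For 75 of the 150 (50%) the 2 females and 3 males did not overlap, with 38 higher in females and 37 higher in males. Over all 3814 genes with a mean over 6 the sexes did not overlap for 38.1%, with 18.2% higher in females and 20% higher in males. A fit with limma over all 6960 probe sets tested called 5 of the 150 (3.33%) at an adjusted p under 0.05, against 1.64% of all probe sets. Of these, 1 was higher in females (0.79% over all) and 4 in males (0.848% over all).

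The largest of the 5 was Hao2, at 13.27 and 13.14 in the females WT 612 and WT 650 and 10.95, 11.87 and 11.48 in the males WT 618, WT 658 and WT 663. Females were higher by 1.77 ± 0.27 (SE) log2 units (limma's adjusted p = 0.0370). Acy3, an aminoacylase that deacetylates mercapturic acids, was at 11.70 and 12.30 in females and 13.72, 13.44 and 13.68 in males. Its difference, female minus male, was -1.62 ± 0.22 (adjusted p = 0.0226).

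The organic anion transporter Slc22a6 ran the same way, at 11.26 and 11.74 against 12.99, 12.75 and 12.82 (-1.36 ± 0.19, adjusted p = 0.0266). Atp11a, a phospholipid flippase, was at 12.24 and 12.25 against 13.31, 13.36 and 13.31 (-1.08 ± 0.13, adjusted p = 0.0163), the tightest groups of the 5. Me1 was at 11.56 and 11.61 against 12.96, 12.70 and 12.63 (-1.18 ± 0.16, adjusted p = 0.0219). None of these pairs of groups overlapped.

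Cyp4b1 and Inmt, a methyltransferase for small amines, had differences of -1.96 and -1.75 but did not pass (both adjusted p = 0.0543), with the female Cyp4b1 values 11.12 and 12.34 more than 1 log2 unit apart. Kap, Slc34a1 and Kl differed by -0.19, -0.14 and -0.03 (adjusted p = 0.462, 0.621 and 0.921). These calls rest on few animals: 0 of the 5 passed without WT 612, without WT 658 or without WT 663, and 3 passed without WT 618 or without WT 650. Over the 150 the counts were 1, 0, 0, 3 and 5 in that order, and 16 with the animal number range as a block.

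The 40 genes with the widest spread had SDs from 1.16 to 4.34. Xist and Eif2s3y, by which sex was read and checked, are among them, and the other 38 are described from here on. The limit fell between Cyp4b1 (SD 1.16) and Serpina1e (1.15), a protease inhibitor of a family with near-identical members. Just inside were also the dipeptidase Cndp2 and the immunoglobulin heavy chain Igha (both 1.21), and next outside the ferroxidase Cp (1.11) and Serpina1b (1.09).

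In the wild-type animals the sexes did not overlap for 30 of the 38, 13 of them higher in females and 17 in males. The same 5 arrays chose the genes, so nothing is read from this count beside the 38.1% over all genes with a mean over 6. The P450 and conjugation list had 9 members among the 40, of 29 with a mean over 6. Of these 9, 6 were higher in males (Cyp4a12b, Cyp7b1, Cyp2e1, Cyp4b1, the alcohol dehydrogenase Adh1 and the glucuronosyltransferase Ugt2b5), 1 was higher in females (the fatty acid hydroxylase Cyp4a14) and 2 overlapped (Aldh1a1 and Cyp24a1). The 2 members of the glutathione and antioxidant list, the glutathione transferases Gsta2 and Gsta4, were both higher in females.

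The widest spread of a gene other than Xist was that of Cyp4a14, at 10.86 in WT 612 and 11.52 in WT 650 against 3.84, 3.50 and 3.40 in WT 618, WT 658 and WT 663. The male values are under a log2 value of 4, near the floor of the array. Cyp4a12b, whose probe set may also read the near-identical Cyp4a12a, was at 1.29 and 5.81 in the 2 females and 8.36, 9.29 and 7.87 in the males. Pzp, an alpha-macroglobulin protease inhibitor, was at 3.10 and 5.70 against 9.33, 10.07 and 10.08.

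Cyp7b1, the oxysterol hydroxylase, was at 3.97 and 7.37 against 10.64, 11.13 and 10.74. In Cyp4a12b, Pzp and Cyp7b1 alike, WT 612 lay under the other female, WT 650, at values under 4 from which no size is read. Fmo5, a flavin monooxygenase, showed no such gap, at 6.18 and 6.15 against 9.37, 9.93 and 9.80. Slc22a30, an organic anion transporter family member, was at 7.59 and 8.72 against 11.74, 11.52 and 11.49.

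The differences were then tested in the 5 transgenic animals, which had no part in the choice. There the sexes did not overlap for 29 of the 38 (76.3%), with 11 higher in females and 18 in males. Over all genes with a mean over 6 in wild type the share was 34.4%, with 19.4% higher in females and 15% higher in males. For 27 genes the sexes were apart the same way in both groups. That count also uses the wild-type arrays that chose the genes. Nothing is therefore read from it beside the 17.6% over all genes with a mean over 6. Bhmt, Klf10 and Hnf4a were apart in wild type alone and Timd2 and Cyp24a1 in the transgenic animals alone.

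A limma fit over 6904 probe sets of the transgenic arrays called 16 of the 38 (42.1%), against 0.869% of all. Of these 5 were higher in females (0.333% over all) and 11 in males (0.536% over all). A fit of the same kind found 29 of the 38 at an unadjusted p under 0.05, against 12.6% of all probe sets.

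**Figure D4:**
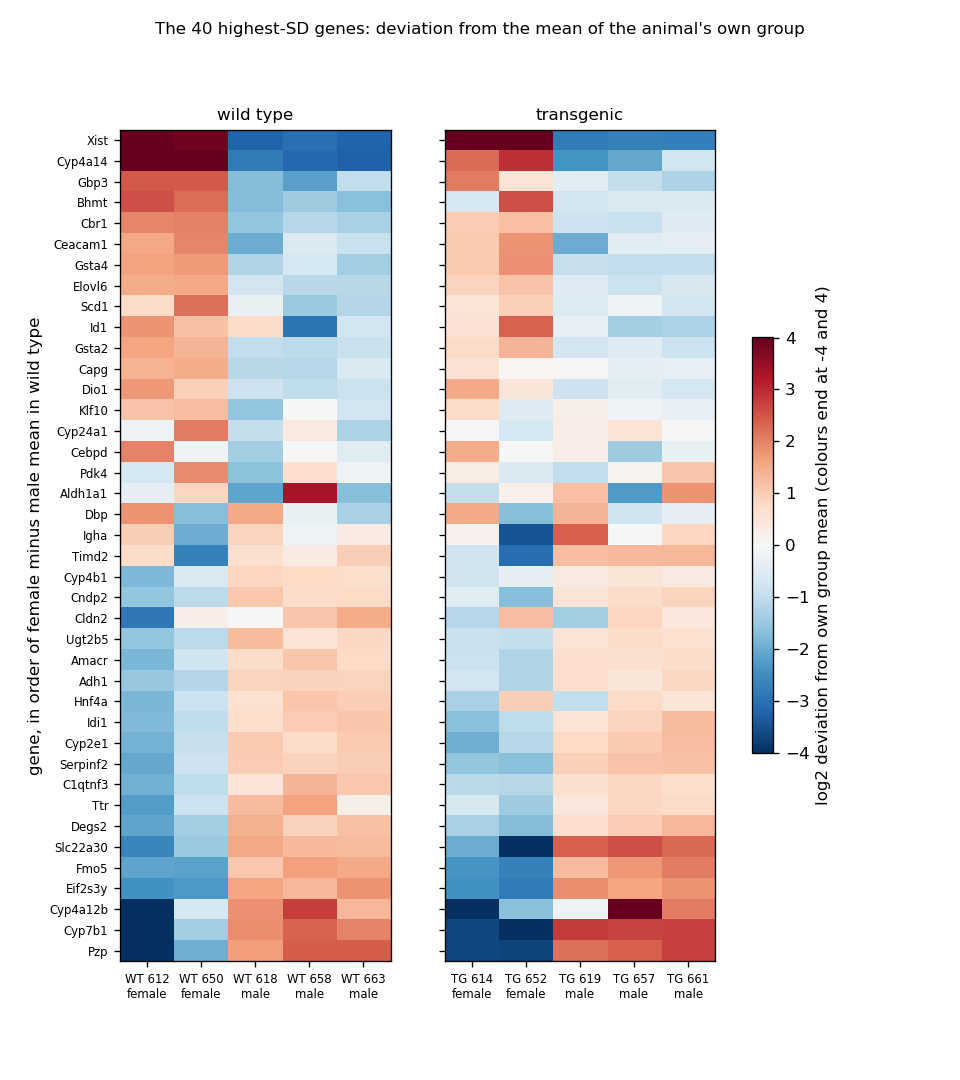
Log2 deviation of the 40 highest-SD genes from the mean of the animal's own group, in the 5 wild-type animals (left) and the 5 transgenic animals (right), females first in each panel. Rows are ordered by the female minus male mean in wild type, and 27 genes besides Xist and Eif2s3y have the sexes apart the same way in both panels. The animals of the left panel chose the genes, so this count is a description only.

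Among the 11 male-higher genes called, Cyp7b1 was at 5.26 and 4.34 in the females TG 614 and TG 652 and 11.70, 11.61 and 11.65 in the males TG 619, TG 657 and TG 661, a female minus male difference of -6.85 ± 0.27 (limma's adjusted p = 0.000507). Pzp was at 2.57 and 2.51 against 8.43, 8.61 and 8.93 (-6.12 ± 0.17, adjusted p = 0.000116). Both sets of values leave a wide gap between the sexes. The females' Pzp values are under a log2 value of 4, where the array no longer separates low levels.

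Fmo5 was at 5.77 and 5.44 against 9.42, 9.87 and 10.21 (-4.23 ± 0.25, adjusted p = 0.00209). Serpinf2, the plasmin inhibitor alpha 2-antiplasmin, was at 6.82 and 6.70 against 9.35, 9.52 and 9.55 (-2.71 ± 0.12, adjusted p = 0.000654). C1qtnf3, a secreted protein related to complement C1q, was at 9.81 and 9.79 against 11.52, 11.71 and 11.60 (-1.81 ± 0.11, adjusted p = 0.00251). These 3 with Cyp7b1 and Pzp passed under each of 16 alternative settings, and the other 11 of the 16 genes did not.

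The remaining male-higher calls ran from -2.56 for Cyp2e1 to -1.54 for Ugt2b5 and included Degs2, a sphingolipid hydroxylase (-2.52), Idi1, an enzyme of isoprenoid and cholesterol synthesis (-2.23), Amacr, a racemase of branched fatty acid breakdown (-1.70), and Adh1 (-1.65). On the female side Cyp4a14 was at 9.44 and 10.11 against 4.79, 5.13 and 6.45 (4.32 ± 0.51, adjusted p = 0.0304). Gsta4, which conjugates products of lipid peroxidation, was at 9.07 and 9.83 against 7.09, 7.03 and 7.04 (2.40 ± 0.23, adjusted p = 0.0132). The carbonyl reductase Cbr1 (1.85), Gsta2 (1.77) and the fatty acid elongase Elovl6 (1.70) completed the 5.

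Slc22a30 and Cyp4a12b did not pass (adjusted p = 0.0591 and 0.227), with females at 6.39 and 3.11 and at 1.03 and 3.62. All but the first of these 4 values are under 4, so the size of either difference is not read. Scd1, the stearoyl-CoA desaturase, differed by 1.26 (adjusted p = 0.0847), and Cyp4b1 by -0.99 (adjusted p = 0.0826). Without TG 657 5 of the 38 passed and without TG 661 10, while with chip lot as a block 26 passed. Spread itself also carried over: 37 of the 38 genes were among the 10% of highest SDs of the transgenic animals, with a median SD of 1.23 log2 units against 0.18 over all genes with a mean over 6.

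The sexes overlapped in wild type for 8 of the 38: Aldh1a1, Cldn2, Dbp, Timd2, Pdk4, Cyp24a1, Cebpd and Igha. Aldh1a1, a retinal dehydrogenase, was at 5.99, 4.24, 7.21, 9.65 and 4.65 in WT 612, WT 618, WT 650, WT 658 and WT 663, highest in WT 658 and lowest in WT 618. Cldn2, the claudin of the leaky proximal tubule junction, was at 4.53, 7.41, 7.64, 8.49 and 8.86, lowest in WT 612. Pdk4, the kinase that shuts down pyruvate oxidation in fasting, was highest in WT 650, at 9.82 against 6.28 to 8.60 in the other 4.

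Cyp24a1, the vitamin D 24-hydroxylase that FGF23 raises, was at 8.08, 7.32, 10.34, 8.62 and 7.0, also highest in WT 650. Cebpd, an acute-phase transcription factor, was highest in WT 612 at 9.57, against 6.20 to 7.58. Timd2, a T-cell immunoglobulin and mucin family receptor, was at 7.21, 7.13, 3.80, 6.83 and 7.48, low in the female WT 650 but not in the female WT 612. Igha was lowest in WT 650 as well, at 5.15 against 6.95 to 8.11.

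Dbp, a transcription factor at the output of the circadian clock, was at 10.25, 9.98, 6.76, 8.17 and 7.16. The time of day at collection is not given in the labels. Of the same clock list, Usp2 was at 10.73, 10.83, 8.53, 9.73 and 9.17, and Tef at 10.09, 10.13, 8.67, 9.26 and 9.09. These 3 were highest in WT 612 and WT 618 and lowest in WT 650, which was the lowest animal for 8 of the 13 members with a mean over 4. The list did not run 1 way: the core clock gene Arntl was at 3.55, 3.37, 5.35, 4.05 and 4.71, Clock at 7.09, 7.49, 7.81, 7.59 and 7.88, and Nfil3, a repressor opposed to Dbp, at 4.06, 4.02, 4.94, 4.53 and 6.53. All 3 were lowest in WT 612 or WT 618, and most Arntl and Nfil3 values are under a log2 value of 5. Over the 13, both kinds together, the mean deviation from each gene's own average was 0.51 in WT 612 and 0.23 in WT 618, and -0.46, -0.13 and -0.15 in WT 650, WT 658 and WT 663.

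Some lists shifted as a block in 1 animal. All 6 thick ascending limb genes were lowest in WT 618 and highest in WT 650, with mean deviations of -0.94 and 0.53 log2 units, while WT 618 was the lowest animal for 20.7% and WT 650 the highest for 17.6% of the 5291 genes with a mean over 4. Besides Umod and Egf, the prostaglandin receptor Ptger3 was at 6.66, 4.80, 7.20, 7.14 and 6.75, and the potassium channel Kcnj1 at 10.52, 9.67, 10.91, 10.17 and 10.19. Slc12a1 was at 11.83, 10.76, 12.23, 11.94 and 11.87. The proximal tubule list did not share this order, with mean deviations of 0.07 in WT 618 and -0.06 in WT 650.

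The adipose list was highest in WT 650 for 5 of its 7 members with a mean over 4, against 17.6% of all 5291 genes. The 7 together had a mean deviation of 1.25 log2 units in that animal from their own 5-animal means. Adipoq and Retn lay furthest above their means, which were 4.77 and 4.59. Both had a mean over 4 only through WT 650, so their part in the 5 and in the 1.25 follows from the choice of members. Nothing is therefore read from the count beside the 17.6%. Lpl and Lep were below their means of 12.38 and 4.66 in WT 650, at 12.26 and 4.57. Fabp4 was near the floor of the array, at 4.51 in WT 650 with a mean of 4.17. Adipoq, adiponectin, was at 8.17 in WT 650 and 3.44 to 4.91 in the other 4, and Retn, resistin, was at 7.13 against 3.71 to 4.26. Car3, the muscle and fat carbonic anhydrase, was at 9.54 in WT 650 and 6.89 to 8.00 elsewhere. Scd1, also abundant in fat, was highest in the same animal, at 13.80. It was next highest in the other female, WT 612, at 12.36, against 10.11 to 11.29 in the males. The sexes did not overlap for Scd1 in the wild-type or in the transgenic animals. The part of the adipose markers in its spread was not tested.

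WT 612 was the highest animal for all 4 podocyte genes with a mean over 4 (mean deviation 0.80), 8 of 10 endothelial genes (0.49), 9 of 11 fibroblast and matrix genes (0.39) and 8 of 12 connecting tubule and principal cell genes (0.51), against 25.2% of all 5291 genes. Of the immediate early and heat shock list, which responds within minutes to stress, 17 of 24 were highest in WT 612 (0.61), among them Sgk1, the kinase induced by aldosterone and stress, at 11.92 against 9.81 to 10.59. WT 612 also had the widest actin 3′ to 5′ difference, given above. These shifts were not tested against RNA integrity. Elf5 of the connecting tubule list and Fos of the immediate early list had a mean over 4 only through WT 612. Their part in the counts and mean deviations of WT 612 follows from the choice of members, so nothing is read from those 2 counts beside the 25.2%.

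The androgen-responsive list holds genes picked for their link to androgen, with earlier results of these data known, so its order by sex is no test. Its 14 members with a mean over 4 had mean deviations of -0.89 in WT 612 and -0.50 in WT 650, and 0.47, 0.51 and 0.41 in WT 618, WT 658 and WT 663. WT 612 was the lowest animal for 10 of the 14, against 31% of all 5291 genes. Not every member was far apart by sex: Cyp2d9 lay between 5.67 and 5.98 in all 5 animals, and the sexes overlapped for Timd2. Of the 15 genes of the list on the array, 4 were among the 150 (Kap, Akr1c21, Cyp4b1 and Slc22a12) and 4 among the 40 (Cyp4a12b, Timd2, Cyp2e1 and Cyp4b1). Odc1, the polyamine synthesis enzyme induced by androgen in mouse kidney, was at 9.67 and 9.85 in females and 11.63, 11.74 and 11.83 in males. Abcc3, a bile acid and conjugate exporter also in the list, ran the other way, at 8.40 and 8.44 in females and 3.92, 4.06 and 3.95 in males. Its mean of 5.75 kept it out of the 40.

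**Figure D5:**
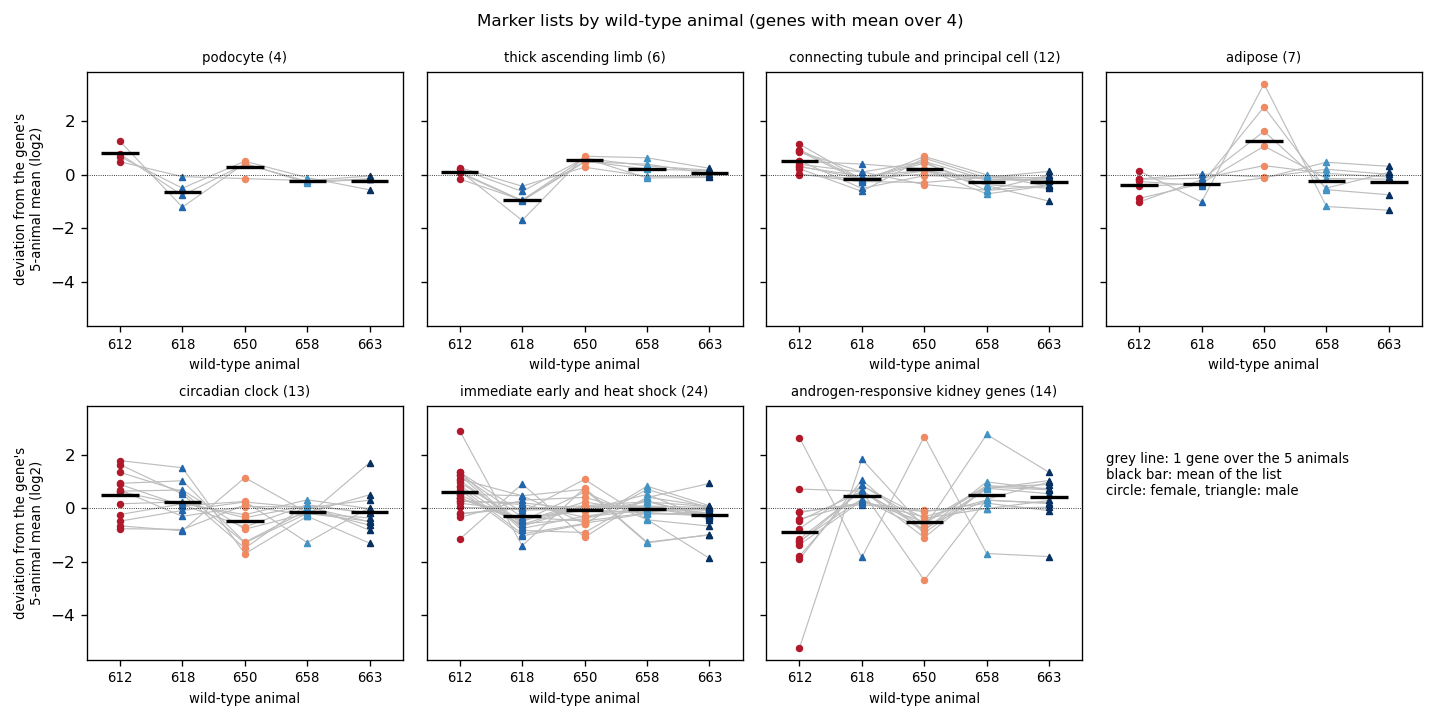
Deviation of each gene from its own 5-animal mean (log2) for 7 marker lists, 1 grey line per gene, with females as circles, males as triangles and a black bar at the mean of the list. The thick ascending limb bar is lowest in WT 618 (-0.94), the adipose bar highest in WT 650 (1.25) and the androgen-responsive bars are below 0 in both females. Adipoq, Retn, Elf5, Fos and Arntl had a mean over 4 only through the animal where each was highest.

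In the promoters of the sex-divided genes, a listed entry was found for 12 of the 17 that were higher in wild-type males and 8 of the 13 higher in females. AGAACA, on either strand, was in 3 of the 12 (Pzp, Adh1 and Cyp4b1) and 1 of the 8 (Ceacam1), against 16.2% of all promoters. TATAAA was in 2 of the 12 (C1qtnf3 and Cyp2e1) and 0 of the 8, against 8.12%. The sequences shown at the start hold the AGAACA of Pzp. With so few promoters these counts are a description only.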

How the data were processed

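Kidney RNA was hybridised to 1-colour Affymetrix arrays, 1 per animal. The deposited values are log2 signals that the authors made with GCRMA, per the submitters' processing notes, with no version given; they were used without further normalization. Of 12488 probe sets, 66 controls were left out; of the rest 10833 named 1 gene in the platform annotation, 396 several and 1193 none, and 16 symbols were not in the RefSeq table. Members and gene lists were chosen with earlier results of these data known. All 150 and 40 genes, the 4 markers and up to 6 members of highest mean per list (41 lists) could be named. Odc1, Abcc3, Cubn, Mep1a, Alb, Arntl, Clock, Nfil3, Ucp1, Elf5 and Fos were chosen after their values were seen. Female against male was tested with limma 3.58.1 in R 4.3.3 (lmFit and eBayes, two-sided, Benjamini-Hochberg over all probe sets over log2 4 on at least 2 arrays), separately in the 5 wild-type and the 5 transgenic arrays; the number of arrays limits the precision. P-values set a difference against the spread between these animals, which eBayes moderates toward a variance pooled over all probe sets tested. With 1 array per animal, differences between animals and between arrays cannot be told apart. The scripts were tested on simulated data. Chip lot, fluidics station and number range were added as blocks after the data were seen. Tables were handled with Python 3.11.15 and pandas 2.3.3.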

Additional observations from a re-analysis of the deposited data

Results flagged for a closer look

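The 150 and 40 genes, the marker genes and all other genes with values in the report were looked at for an animal standing apart by Dixon's test among the 5 wild-type animals. Of these 228 genes 10 had one. The 40 were chosen by their SD over these same animals, and some other genes after their values were seen. The usual chance rate of about 1 in 20 therefore does not apply, and the genes below are a description only.

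WT 650 stood apart in 4 genes. Calb1 was at 11.73, above the other 4 animals, which lay between 11.04 and 11.24. Timd2 was at 3.80, under a log2 value of 4, with the other 4 between 6.83 and 7.48. The adipose genes Retn and Ucp1, the uncoupling protein of brown fat, were at 7.13 and 5.65, against 3.71 to 4.26 and 4.14 to 4.44.

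WT 618 stood apart in another 4. The thick ascending limb genes Slc12a1 and Ptger3 were low, at 10.76 and 4.80, against 11.83 to 12.23 and 6.66 to 7.20. Tpt1 was at 14.25, against 14.12 to 14.15, and Lamp1, a lysosomal membrane protein, at 13.02, against 12.80 to 12.82, both excesses of small size.

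WT 658 stood apart in the last 2. Hibadh, an enzyme of valine breakdown, was at 12.53, against 12.21 to 12.29, and Abcg2 at 12.20, against 11.87 to 11.95.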

How the results depend on the processing

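Of the 150 highest-signal genes, 111 to 150 were kept under each alternative: 111 with all probe sets of a gene averaged, 117 with plain probe sets alone, 142 with the median over arrays, 150 with quantile normalization or median centring, and 143 to 148 on leaving out 1 animal. Of the 40 highest-SD genes, 15 were kept with the median absolute deviation and 19 with a mean over 8, while 27 to 38 were kept on leaving out 1 animal. The count of the 150 called by sex in wild type was 3 with median centring, 0 with processing day as a block, 2 with chip lot, 16 with number range, and 0 to 5 on leaving out 1 animal. Over all probe sets the wild-type calls were 26 with day, 492 with number range and 14 to 138 on leaving out 1 animal. In the transgenic arrays the calls among the 38 were 10 with day, 26 with chip lot and 5 to 18 on leaving out 1 animal, and over all probe sets 27 with day, 117 with chip lot, 111 with number range and 16 to 56 on leaving out 1 animal. The day block amounts to leaving out the lone array of another day, and a lone female left by leaving out 1 was assumed to vary like the males; other causes were not tested. For the genes called in the main fits alone, sex differences stayed called in 217 and lost the call in 39 transgenic settings. In wild type these counts were 50 and 30, and no sign changed in either group. Genes not called in the main fits were not followed in this way. No paired analysis was possible because the groups share no animal numbers and litters are not given.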
